A study of Mus musculus with 4 samples.

Results

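The 10 genes described here are markers of undifferentiated embryonic stem (ES) cells: the Dppa genes Dppa2, Dppa3, Dppa4 and Dppa5a, and Utf1, Tdgf1, Fbxo15, Tcl1, Gdf3 and Lin28a. Their probe sets were found by name, as those whose single annotated gene symbol was one of these. All 10 had at least 1 such probe set, which gave 13 probe sets of the 21789 with a single symbol and 10 genes of the 19938 so represented. Dppa2, Dppa3 and Dppa4 had 2 probe sets each. For these the probe set with the higher mean over the arrays stands for the gene, and the other is given beside it.

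The study followed mouse ES cells of the D3 line into embryoid bodies (EBs), the aggregates in which ES cells differentiate, and asked how bexarotene, a synthetic agonist of the retinoid X receptors, and retinoic acid (RA), the natural ligand of the retinoic acid receptors, change gene expression on the way to skeletal muscle. RNA was measured on 4 Affymetrix arrays, 1 per condition. The bexarotene-treated EBs had received 50 nM bexarotene, and the RA-treated EBs 5 µM RA by the sample labels, whereas the article gives an RA dose in the nanomolar range. The untreated EBs had received no ligand, all EBs were collected at day 7, of which they spent 2 days in hanging drops and 5 in suspension, and the ES cells were undifferentiated and untreated (day 0). The values are log2 signals as deposited, so that a difference of 1 is a 2-fold difference. With 1 array per condition there was no replicate error, no difference could be tested and no p-value is given. Following the criterion of the study, higher and lower in the counts mean past 1.5-fold, which is a log2 difference of 0.585. As a yardstick for smaller differences, the robust SD of the bexarotene minus RA difference among genes of like signal was 0.0707 to 0.140 at the signals of the members. It describes the ligand-treated arrays, which differed least from each other, includes real differences between the ligands, and is no replicate error.

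In the mouse, pluripotency is held by a network of transcription factors around Pou5f1 (Oct4), Sox2 and Nanog. Most of the genes described here lie downstream of that network and were found as transcripts that are abundant in ES cells and lost on differentiation. Their products are unlike one another. Dppa2 and Dppa4 are nuclear proteins with a SAP domain that act together on chromatin, Dppa3 (Stella) is a maternal and germ cell factor that protects DNA methylation in the zygote, and Dppa5a (Esg1) is an RNA-binding protein with a KH domain. Utf1 is a chromatin-bound cofactor, and Fbxo15 is an F-box protein whose gene is a classic Oct4 and Sox2 target. Tdgf1 (Cripto) is the coreceptor of Nodal and Gdf3 a ligand of the same TGF-beta class, Tcl1 binds and activates the Akt kinases, and Lin28a is an RNA-binding protein that blocks maturation of the let-7 miRNAs. In the plot of the signals on all arrays, 8 members lie highest in ES cells, while Dppa3 and Lin28a do not.

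**Figure D1:**
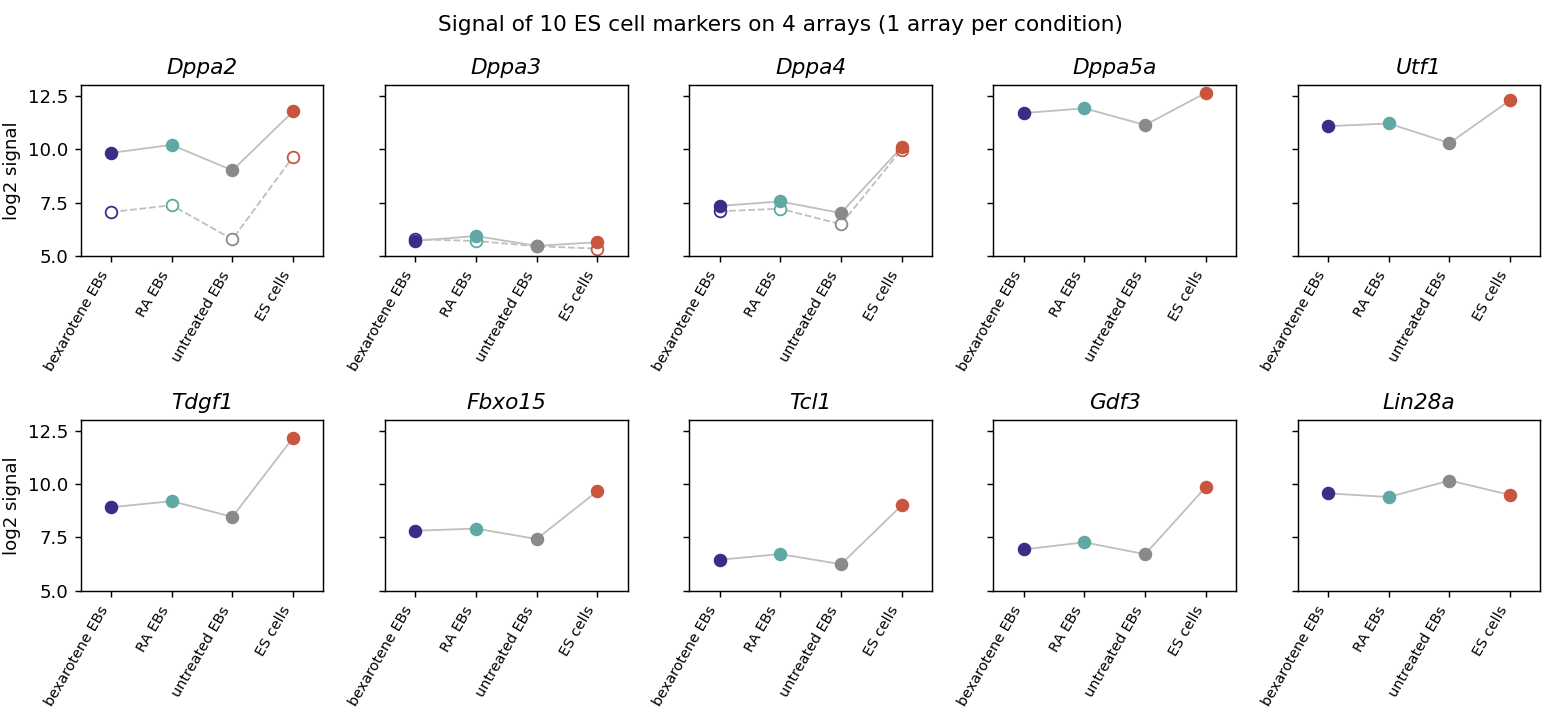
Log2 signal (vertical axis) of each of the 10 members on the 4 arrays, from left to right bexarotene-treated, RA-treated and untreated EBs and ES cells, 1 array per condition and so without error bars, with the second probe set of Dppa2, Dppa3 and Dppa4 as open points. The ES cell point is the highest for 8 members, Dppa3 stays between 5.48 and 5.94, and Lin28a is highest in untreated EBs at 10.16.

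Among the 10 members, 8 were lower in untreated EBs relative to ES cells, 1 was higher (Lin28a) and 1 was past the threshold in neither direction (Dppa3). Over all genes, 8.52 percent were lower and 11.0 percent higher in this comparison. The median log2 difference over the members was -2.50, against -0.04 over all genes. In bulk RNA of this kind, fewer cells of a type and less RNA per cell cannot be told apart.

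The same 8 members stayed lower in both ligand-treated EBs. In RA-treated EBs against ES cells, 8 members were lower and 0 higher, with a median of -1.66 and a background of 9.19 percent lower and 10.5 percent higher over all genes. In bexarotene-treated EBs against ES cells the counts were also 8 lower and 0 higher, with a median of -1.90 and a background of 9.69 percent lower and 10.2 percent higher. Of all genes, 1345 were lower in all 3 EB arrays than in ES cells.

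Among the EB arrays the 8 members were ordered alike, highest with RA, then with bexarotene, and lowest without ligand. This order, with ES cells on top, was met by 8 of the 10 members and by 8.61 percent of all genes. For these 8 members ES cells on top was already given, which was not so for all genes. The share among genes lower in all EBs is not given here. RA-treated EBs against untreated EBs gave 4 members higher (Dppa2, Dppa5a, Utf1 and Tdgf1) and 1 lower (Lin28a), with a median of 0.55. Over all genes, 2.07 percent were higher and 2.22 percent lower. Bexarotene-treated EBs against untreated EBs gave 2 members higher (Dppa2 and Utf1) and 1 lower (Lin28a), with a median of 0.36. Over all genes, 3.63 percent were past the threshold in either direction, 295 of the 19938 genes higher and 429 (2.15 percent) lower. These comparisons share the untreated array, so that a low or high value on that array moves both in the same direction, and whether it did was not tested.

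Between the ligands no member was past the threshold. Bexarotene-treated EBs against RA-treated EBs gave 0 members higher and 0 lower, beside 0.196 and 0.296 percent of all genes, with a median of -0.22. The signal with bexarotene was below that with RA for 9 of the 10 members, while 54.0 percent of all genes lay below. Dppa3 is counted among the 9, but its other probe set (10541515) lay above RA by 0.08. A nearer background is the 1698 genes whose untreated EB signal was past the threshold below the ES cell signal. Of these, 34.9 percent had a higher signal with bexarotene than with RA, so that most of them, like the members, did not. The doses of the ligands differed, and the difference between them was not tested.

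**Figure D2:**
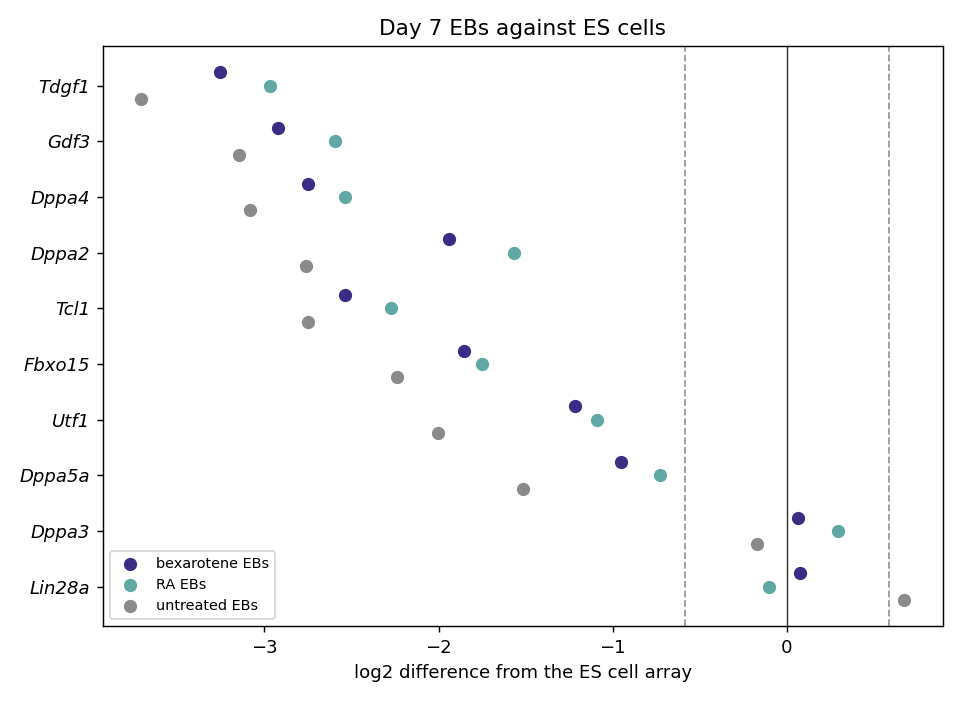
Log2 difference from ES cells (horizontal axis) of each member in bexarotene-treated, RA-treated and untreated EBs, with dashed lines at 1.5-fold in either direction and 1 array per condition. The points of 8 members lie left of the threshold in all 3 EB arrays, from -0.73 for Dppa5a with RA to -3.71 for Tdgf1 without ligand.

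Of the Dppa genes, Dppa2, Dppa4 and Dppa5a were lower in all EBs and had the same order of arrays, and Dppa3 did not. Dppa2, which opens and marks chromatin at developmental promoters together with Dppa4, had a log2 signal of 9.83 in bexarotene-treated, 10.21 in RA-treated and 9.01 in untreated EBs, against 11.77 in ES cells (probe set 10463138). ES cells stood apart from the EB arrays, and within the EB arrays the untreated one was the lowest. Untreated EBs had 14.8 percent of the ES cell signal, a 6.77-fold difference (log2 -2.76). The signal was 2.29-fold higher with RA than without ligand and 1.76-fold higher with bexarotene, the widest differences in this direction among the 10 members with each ligand. On the log2 scale the value with bexarotene lay 29.7 percent, and that with RA 43.3 percent, of the way from untreated EBs to ES cells.

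The second Dppa2 probe set (10436053) gave 7.06 with bexarotene, 7.38 with RA and 5.79 in untreated EBs, against 9.65 in ES cells. It showed the same order of arrays with larger differences. Untreated EBs were 14.6-fold below ES cells, and the signal was 3.02-fold higher with RA and 2.42-fold higher with bexarotene than without ligand. The ligand values lay 33 percent (bexarotene) and 41.3 percent (RA) of the way from untreated EBs to ES cells, close to those of the first probe set.

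Dppa4, the partner of Dppa2, had a log2 signal of 7.35 in bexarotene-treated, 7.56 in RA-treated and 7.01 in untreated EBs, against 10.10 in ES cells (probe set 10486954). The EB arrays lay close together and far below ES cells. Untreated EBs had 11.8 percent of the ES cell signal (8.48-fold, log2 -3.08). The differences from untreated EBs, 0.54 with RA and 0.34 with bexarotene, did not pass the threshold on this probe set. On the other probe set (10436050) the signal was 7.10 with bexarotene, 7.22 with RA and 6.49 without ligand, against 9.98 in ES cells, and both ligand arrays were past it, 1.65-fold with RA and 1.53-fold with bexarotene. Whether Dppa4 counted as higher with a ligand therefore rested on the choice of probe set. On the first probe set the values with bexarotene and RA lay 10.9 and 17.6 percent of the way from untreated EBs to ES cells, less far than for Dppa2.

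Dppa3 was not past the threshold against ES cells in any EBs. Its log2 signal was 5.71 in bexarotene-treated, 5.94 in RA-treated and 5.48 in untreated EBs, against 5.65 in ES cells (probe set 10604135), and on the other probe set (10541515) 5.79, 5.71 and 5.46, against 5.35. All 8 values lay below the array medians of 6.66 to 6.69, at percentiles 27.7 to 37.2 of their arrays, and the probe sets put the arrays in unlike order, although on both of them the ligand-treated EBs lay above the untreated EBs. No difference of Dppa3 passed the threshold, the widest being 0.46 in RA-treated against untreated EBs, with a yardstick of 0.117 at this signal. A low-lying value of this kind does not show whether the transcript was absent.

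Dppa5a, a small RNA-binding protein, had a log2 signal of 11.69 in bexarotene-treated, 11.92 in RA-treated and 11.13 in untreated EBs, against 12.65 in ES cells. All 4 values were at or above percentile 96 of their arrays, so the gene was high also where it was lowest. Untreated EBs had 35 percent of the ES cell signal (2.85-fold, log2 -1.51), the smallest difference among the 8 members that were lower. With RA the signal was 1.72-fold higher than without ligand. On the log2 scale the value with bexarotene lay 37.1 percent, and that with RA 51.9 percent, of the way from untreated EBs to ES cells. With bexarotene the log2 difference was 0.56, short of the threshold. RefSeq lists the pseudogenes Dppa5b and Dppa5c beside Dppa5a, and likewise Dppa3-ps for Dppa3 and Tdgf1-ps1 and Tdgf1-ps2 for Tdgf1. The annotation used here does not say to which copy a probe set binds, so that a signal of these genes may include a copy. Nor does it say where in the genome each of the 2 probe sets of Dppa2, Dppa3 and Dppa4 lies. The values of these genes may therefore also come from a copy.

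Utf1 binds chromatin in ES cells and epiblast. Its log2 signal was 11.08 in bexarotene-treated, 11.21 in RA-treated and 10.29 in untreated EBs, against 12.29 in ES cells. Both ligand arrays lay between the untreated EBs and ES cells. Untreated EBs had 24.9 percent of the ES cell signal (4.02-fold, log2 -2.01). The signal was 1.89-fold higher with RA and 1.73-fold higher with bexarotene than without ligand, and these values lay 45.7 and 39.4 percent of the way to ES cells. On the probe sets that stand for the genes, Utf1 and Dppa2 were the only members higher with both ligands. The other probe set of Dppa4 was past the threshold with both as well.

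Fbxo15 encodes the substrate-binding part of a ubiquitin ligase and can be deleted in mice without loss of pluripotency. Its log2 signal was 7.81 in bexarotene-treated, 7.91 in RA-treated and 7.43 in untreated EBs, against 9.67 in ES cells. The EB arrays were close together, and untreated EBs had 21.2 percent of the ES cell signal (4.73-fold, log2 -2.24). The differences of 0.49 with RA and 0.39 with bexarotene from untreated EBs were both short of the threshold.

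Tdgf1 and Gdf3 belong to Nodal signalling, which keeps epiblast cells pluripotent and patterns the early embryo. Tdgf1, the membrane-anchored coreceptor, had a log2 signal of 8.91 in bexarotene-treated, 9.20 in RA-treated and 8.46 in untreated EBs, against 12.17 in ES cells. Of the 10 members it had the widest gap between ES cells and untreated EBs, which had 7.65 percent of the ES cell signal (13.1-fold, log2 -3.71). Relative to untreated EBs the signal was 1.67-fold higher with RA, and with bexarotene the difference was 1.37-fold, short of the threshold. Even so the ligand-treated EBs had 10.5 percent of the ES cell signal with bexarotene and 12.8 percent with RA, so that most of the gap remained.

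Gdf3, a secreted ligand that signals through the same receptors, had a log2 signal of 6.94 in bexarotene-treated, 7.27 in RA-treated and 6.71 in untreated EBs, against 9.86 in ES cells. Untreated EBs had 11.3 percent of the ES cell signal (8.86-fold, log2 -3.15) and lay close to the array median. The differences from untreated EBs were 0.56 with RA and 0.22 with bexarotene. Both were short of the threshold, and the value with bexarotene lay 7.14 percent of the way from untreated EBs to ES cells, the lowest share among the 8 members.

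Tcl1 enhances Akt activity and the growth of ES cells. Its log2 signal was 6.46 in bexarotene-treated, 6.72 in RA-treated and 6.24 in untreated EBs, against 8.99 in ES cells. The gene was near or below the array median in all EBs and well above it in ES cells only. Untreated EBs had 14.9 percent of the ES cell signal (6.73-fold, log2 -2.75), and the differences of 0.47 with RA and 0.21 with bexarotene were short of the threshold.

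Lin28a ran the other way. Its log2 signal was 9.57 in bexarotene-treated, 9.39 in RA-treated and 10.16 in untreated EBs, against 9.49 in ES cells. Untreated EBs stood above the other arrays, which lay within 0.18 of one another. The signal in untreated EBs was 1.59-fold higher than in ES cells (log2 0.67), and that in RA-treated EBs was 1.71-fold lower than in untreated EBs (log2 -0.77). In bexarotene-treated EBs it was 1.51-fold lower (log2 -0.60), which fell short of the threshold after quantile normalization (-0.56) and after loess normalization (-0.55). Against ES cells the ligand-treated EBs differed by 0.08 with bexarotene and -0.10 with RA, about the size of the yardstick at this signal, 0.104.

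**Figure D3:**
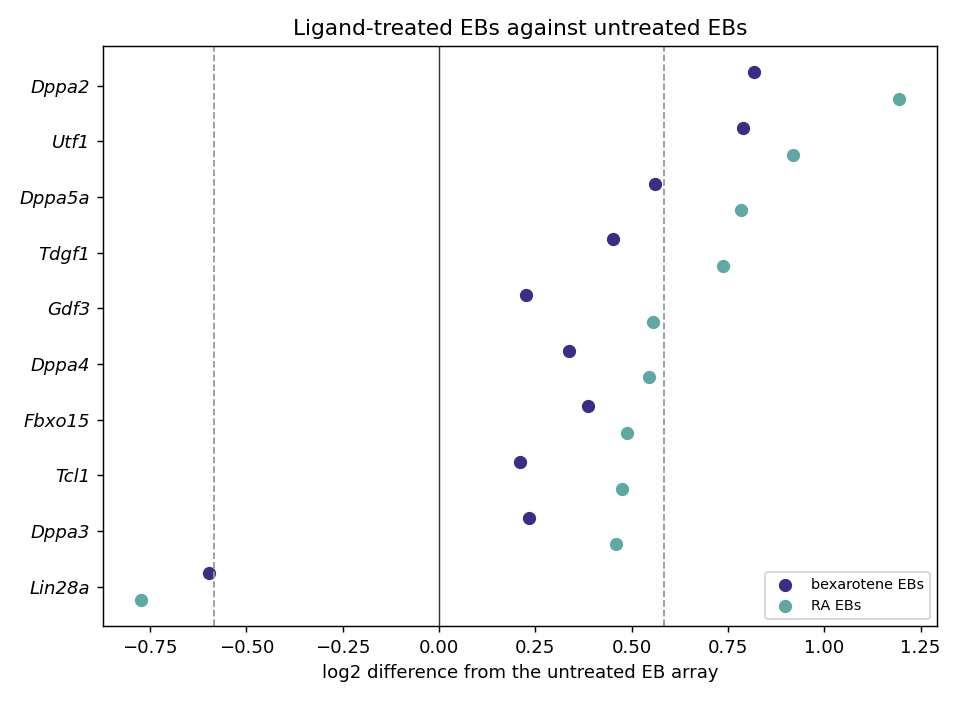
Log2 difference from untreated EBs (horizontal axis) of each member in bexarotene-treated and RA-treated EBs, with dashed lines at 1.5-fold in either direction and 1 array per condition. Differences are above 0 for 9 members with each ligand, Dppa2 lies farthest right at 0.82 with bexarotene and 1.19 with RA, and Lin28a lies on the left at -0.60 and -0.77.

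The members so fell into 3 patterns, described here by their values and not by a test. With RA, Dppa2, Dppa5a and Utf1 lay at least 43.3 percent of the way from untreated EBs to ES cells. Dppa4, Tdgf1, Fbxo15, Tcl1 and Gdf3 lay between 17.3 percent (Tcl1) and 21.8 percent (Fbxo15) of the way. Dppa3 and Lin28a were not lower in untreated EBs, so that no such share is given. By Euclidean distance over the differences of the EB arrays from ES cells, the most alike members were Dppa4 and Gdf3 at 0.194 on the log2 scale. Dppa4 and Tcl1 were 0.474 apart, and Dppa2 and Fbxo15 0.557. Dppa2 and Fbxo15 belong to different patterns above, which rest on the share with RA alone. By distance Dppa2 lay farther from Utf1 (1.15) and Dppa5a (1.80), with which it was grouped.

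To set the members against the other genes that were lower in untreated EBs relative to ES cells, all 1698 such genes were pooled. With RA, 96 of them (5.65 percent) were higher than in untreated EBs and 16 (0.942 percent) lower, with a median difference of 0.08, and 64.7 percent lay above 0. With bexarotene, 58 (3.42 percent) were higher and 21 (1.24 percent) lower, with a median of 0.04, and 58.4 percent lay above 0. The untreated array chose these genes and is part of the difference, so that values above 0 are favoured by the choice. The 8 members among the 1698 lay above 0 with both ligands.

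The promoter sequences of the members at the opposite ends of this pattern are shown for reference. Promoter windows of 300 bases, 250 before and 50 after the start of the gene, were present in the RefSeq table (GRCm38.p6) for Utf1, Tdgf1, Tcl1 and Lin28a. Tdgf1 had the widest loss and Lin28a the only gain in untreated EBs. Capitals in the Tdgf1 window, on the minus strand at chr9:110946109-110946408, mark GGGCGTGG, a GC-box variant. Capitals in the Lin28a window, on the minus strand at chr4:134018767-134019066, mark CATTGT, the core motif of Sox factors.
Tdgf1: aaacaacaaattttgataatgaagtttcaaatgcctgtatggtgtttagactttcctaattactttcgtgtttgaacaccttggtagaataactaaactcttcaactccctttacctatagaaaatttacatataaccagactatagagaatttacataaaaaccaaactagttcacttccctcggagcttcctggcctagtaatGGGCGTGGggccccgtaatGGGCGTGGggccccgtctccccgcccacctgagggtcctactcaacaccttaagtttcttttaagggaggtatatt
Lin28a: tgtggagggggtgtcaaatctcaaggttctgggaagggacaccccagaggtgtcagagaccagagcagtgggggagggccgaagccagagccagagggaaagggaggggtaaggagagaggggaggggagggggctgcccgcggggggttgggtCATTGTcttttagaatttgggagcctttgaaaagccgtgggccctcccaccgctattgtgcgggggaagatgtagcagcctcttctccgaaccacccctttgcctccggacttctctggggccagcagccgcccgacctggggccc
The Tdgf1 window had 41.7 percent GC and 7 CpG dinucleotides, and the Lin28a window 63.3 percent GC and 10 CpG, beside a median of 52.7 percent GC over all 32851 windows. GGGCGTGG occurred at positions 206 and 225 of the Tdgf1 window, counted from its 5′ end, and in none of the other member windows. It was searched for only after the sequence had been seen, and 5.33 percent of all windows hold it on either strand. CATTGT occurred at position 155 of the Lin28a window, and 12.6 percent of all windows hold it. The octamer ATGCAAAT (1.74 percent of windows), the near octamer ATGCNAAT, which includes it (3.15 percent), the Esrrb motif TCAAGGTCA (0.423 percent) and the nuclear receptor core motif AGGTCA, which lies within the Esrrb motif (16.3 percent), were in none of the 4 windows on either strand. These letters are a description of the windows and show no binding.

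The core and naive pluripotency genes, from Pou5f1, Sox2 and Nanog to Klf, Esrrb and Zfp42, showed the same main difference. Of 16 measured, 14 were lower and 0 higher in untreated EBs relative to ES cells (median -2.02). Against untreated EBs, 6 were higher and 0 lower with RA (median 0.40), and 1 was higher and 1 lower with bexarotene (median 0.21). Pou5f1 had a log2 signal of 8.81 in bexarotene-treated, 9.42 in RA-treated and 8.78 in untreated EBs, against 11.67 in ES cells. It was thus past the threshold with RA (0.64) and at the untreated level with bexarotene (0.04), whereas all 8 lower members lay at least 0.21 above untreated EBs with bexarotene.

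Nanog had 9.59 in bexarotene-treated, 9.91 in RA-treated and 9.18 in untreated EBs, against 11.65 in ES cells, and so differed from untreated EBs by 0.72 with RA and 0.41 with bexarotene. Nr0b1 (Dax1), a nuclear receptor without a DNA-binding domain of the usual kind, had the widest gap of the list, with 8.22, 8.74 and 7.37 in bexarotene-treated, RA-treated and untreated EBs, against 12.07 in ES cells. Zfp42 (Rex1) was lower by a log2 difference of -3.92 in untreated EBs. Sox2, which is also a neural gene, differed by -0.41 and Sall4 by 0.08, both short of the threshold, as Dppa3 was.

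The primed epiblast genes, which are on in the postimplantation epiblast, differed among themselves in untreated EBs against ES cells. Of 10 measured, 1 was lower and 4 higher. Fgf5 (2.09) and Otx2 (1.82) were higher in untreated EBs, as Lin28a was, and Foxd3 (-2.43) was lower. With RA, 2 of the 10 were lower than in untreated EBs and 0 higher, and with bexarotene 3 lower and 0 higher. Otx2 differed by -1.35 with RA and -1.99 with bexarotene, and Fgf5 by -0.66 and -1.53. Lin28a stood on the same side of 0 as these genes with both ligands.

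Around Tdgf1 and Gdf3, the 13 measured genes of the Nodal pathway gave 4 lower and 5 higher in untreated EBs relative to ES cells. Nodal itself, the ligand that binds Tdgf1, was lower by a log2 difference of -2.00, and Pcsk6, a convertase that cleaves the Nodal precursor, by -2.25. Cer1, a secreted antagonist of Nodal, was higher by 4.34, and Smad3, a transducer, by 2.07. With RA, 2 of the list were lower and 3 higher than in untreated EBs, and with bexarotene 2 lower and 1 higher. Cer1 differed by -4.04 with RA and -3.98 with bexarotene, and Nodal by 0.34 and -0.00, short of the threshold where Tdgf1 was past it with RA (0.74).

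Around Lin28a, 4 of the 9 measured genes of the Lin28 and let-7 pathway were higher and 1 lower in untreated EBs relative to ES cells. Lin28b, the paralog of Lin28a, was higher by 1.53 and Hmga2, a chromatin protein whose mRNA is a target of let-7, by 1.30. Mycn was lower by a difference of -0.67, and Trim71, which is also held down by let-7, differed by -0.39. With RA 1 of the 9 was lower and 0 higher, and with bexarotene 0 were past the threshold. Lin28b differed from untreated EBs by -0.17 with RA and -0.19 with bexarotene, short of the threshold that Lin28a passed.

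The let-7 genes themselves were looked at after the other values had been seen. Lin28 proteins bind the let-7 precursors, in part at a GGAG element in the terminal loop. Of 10 let-7 family genes with a probe set of a single symbol, all had a hairpin in the RefSeq table and 9 of these held GGAG, which Mir98 lacks. The hairpins of Mirlet7g, at chr9:106178840-106178927 on the plus strand, and of Mir98, at chrX:151913214-151913321 on the plus strand (GRCm38.p6), show a member with the element, in capitals, and the one without.
Mirlet7g: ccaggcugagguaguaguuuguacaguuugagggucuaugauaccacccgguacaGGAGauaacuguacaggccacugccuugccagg
Mir98: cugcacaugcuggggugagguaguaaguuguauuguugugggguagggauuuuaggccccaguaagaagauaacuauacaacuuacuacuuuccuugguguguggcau
None of the 10 passed the threshold in any of the 6 comparisons, with differences of -0.43 to 0.39 and log2 signals of 3.30 to 7.00. Mirlet7g had 4.69 with bexarotene, 5.04 with RA and 4.69 in untreated EBs, against 4.99 in ES cells, and Mir98 had 5.00, 4.61 and 4.98, against 5.04. Such probe sets read total RNA at these loci with a whole-transcript kit, and mature let-7 levels were not measured.

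Around Tcl1, the Tcl1b paralogs had log2 signals of 3.52 to 6.39 on all arrays, below the array medians also in ES cells. Whether signals this low hid a loss was not tested. Tcl1b1 to Tcl1b5 lay between -0.17 and 0.11 in untreated EBs against ES cells, where Tcl1 had -2.75. In the whole list of 7 measured genes, Akt1 was higher by 0.76 and 0 were lower, and 0 passed the threshold with either ligand. The 2-cell genes related to Dppa2 and Dppa4 are switched on for a short time as the zygotic genome is activated. Of 10 listed, only 4 were measured, and the listed Zscan4 genes were not among them. None of those measured passed the threshold in any comparison, with differences of -0.27 to 0.03 in untreated EBs against ES cells. Their log2 signals were low too, 3.97 to 5.35 on all arrays.

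Other genes enriched in ES cells were lower in 11 of 13 and higher in 0 of 13 in untreated EBs, with a median of -1.71, among them Dnmt3l (-3.13) and L1td1 (-3.02). With RA 4 were higher and 1 lower than in untreated EBs, and with bexarotene 2 were higher and 2 lower. Jam2, an adhesion protein, named after its values were seen, was 3.3-fold higher with RA and 2.59-fold higher with bexarotene, more than any member. Of 11 primordial germ cell genes measured, the group to which Dppa3 belongs by function, 6 were lower and 1 higher in untreated EBs relative to ES cells. Mael (-3.32) and Ddx4 (-2.19), factors of the germ line, were lower, and Kit, a receptor of germ cells and blood progenitors, was higher by 0.98, beside -0.17 for Dppa3.

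The EBs held markers of other cell types, given here for the whole of each list. In untreated EBs against ES cells, 6 of 10 visceral endoderm, 5 of 9 trophoblast, 4 of 9 mesoderm and 6 of 9 neural genes were higher, with Ttr (3.60), Gata3 (2.00), Isl1 (2.26) and Fabp7 (3.67) among them. In the same comparison 1 trophoblast gene (Ascl2, -0.59) and 1 neural gene (Neurod1, -2.17) were lower, and 0 of the other two lists. Relative to untreated EBs, 7 of the 9 neural genes were higher with bexarotene (median 1.17), 7 of 9 with RA (median 1.43) and 0 lower with either. Their mean log2 signal was 9.13 in bexarotene-treated, 9.45 in RA-treated and 7.89 in untreated EBs, against 7.02 in ES cells. The order of the EB arrays was thus that of the 8 lower members. The mean of the visceral endoderm genes had this order too, with 9.14 in bexarotene-treated, 9.27 in RA-treated and 9.07 in untreated EBs. The means of the trophoblast and mesoderm genes were highest in untreated EBs among the EB arrays. The part of cell composition in the members' differences was not tested. Against untreated EBs, bexarotene gave 1 trophoblast gene lower and 1 higher, and RA gave 5 lower and 0 higher. Of the mesoderm genes, bexarotene gave 2 lower and 1 higher and RA 3 lower and 0 higher, and 0 visceral endoderm genes were past the threshold with either ligand. Of 11 housekeeping genes, 1 was lower (Hprt, -1.43) and 1 higher (B2m, 1.06) in untreated EBs than in ES cells, and 0 passed the threshold with either ligand.

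**Figure D4:**
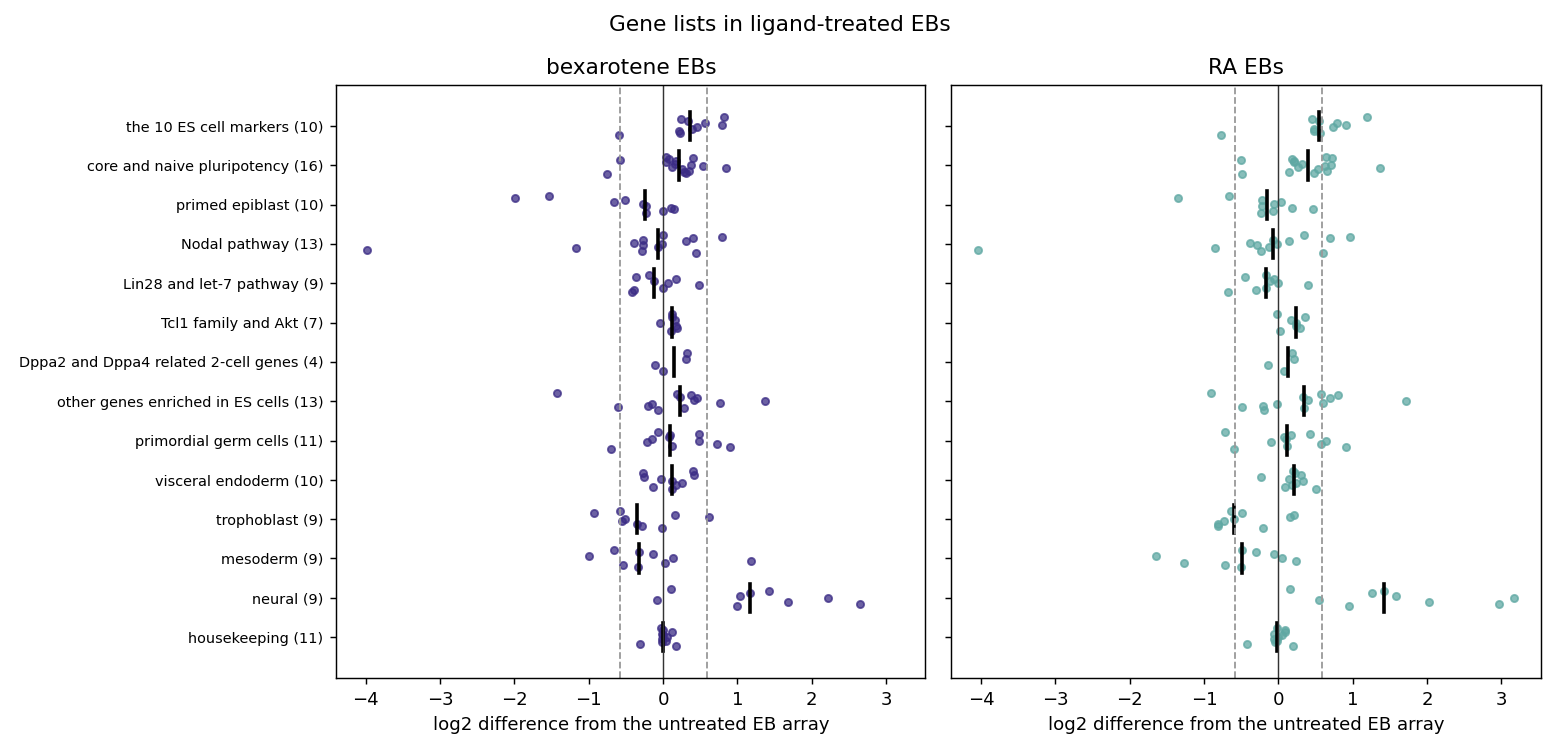
Log2 difference from untreated EBs (horizontal axis) of the single genes (points) of the 10 members and of each gene list, with the median as a black bar and the number of genes in brackets, for bexarotene-treated EBs on the left and RA-treated EBs on the right, 1 array per condition, dashed lines at 1.5-fold. The members have medians of 0.36 with bexarotene and 0.55 with RA, and the neural genes lie farthest right, at medians of 1.17 and 1.43.

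The genes whose pattern was most like the members were sought among 12014 genes whose highest signal reached the median of the 4 arrays pooled (6.68), by distance over the differences of the 3 EB arrays from ES cells. The members' median profile was -1.90 in bexarotene-treated, -1.66 in RA-treated and -2.50 in untreated EBs. The nearest genes were Pramel13 (distance 0.100), Tdrd12 (0.172), Nanog (0.191), Fam178b (0.246) and Ccdc3 (0.247). Pramel13 had -1.83, -1.59 and -2.47 in the same order. Tdrd12 was also the nearest gene to Dppa2 (0.217), with -1.87, -1.74 and -2.65.

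For the other members the nearest genes were Ttc39b for Dppa4 (0.0904), Alpl for Dppa5a (0.0920), Zfp600 for Utf1 (0.0883), Vmn2r-ps104 for Fbxo15 (0.0770), Zfp296 for Tcl1 (0.139), L1td1 for Gdf3 (0.214) and Septin1 for Tdgf1 (0.239). Alpl, the tissue-nonspecific alkaline phosphatase whose activity is a stain for ES cells, differed from ES cells by -1.02 with bexarotene, -0.77 with RA and -1.48 without ligand, close to the -0.95, -0.73 and -1.51 of Dppa5a. Lin28a lay nearest to Cfc1 (0.0877), the Cryptic coreceptor of Nodal and paralog of Tdgf1, which had 0.04, -0.02 and 0.67. The log2 signal of Cfc1 was low, near or below the array medians. It was 6.05 in bexarotene-treated, 5.99 in RA-treated and 6.69 in untreated EBs, against 6.01 in ES cells. Dppa3 lay nearest to Trim29 (0.0218), and neither gene was past the threshold in any comparison. Each profile has 3 values that share the ES cell array, so the likeness is a description.

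Several members lie beside one another in the genome, by the gene order of RefSeq (GRCm38.p6). On chromosome 16 Dppa4, Dppa2 and Morc1, a germ cell ATPase, are neighbours, and Morc1 had -2.61 with bexarotene, -2.68 with RA and -3.37 without ligand against ES cells. All 3 genes were therefore lower in all EBs. On chromosome 6 the order is Apobec1, Gdf3, Dppa3, Nanog. Apobec1 differed by -2.25, -2.09 and -2.52, and Dppa3 thus sat among 3 genes that were lower in EBs. It did not share the difference, but its signal was low in ES cells too (5.65, below the array median). Whether a signal this low hid a loss was not tested.

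The remaining members had unlike neighbours. Ooep, an oocyte protein of the Dppa5a family next to Dppa5a on chromosome 9, differed by -2.31 with bexarotene, -2.33 with RA and -2.72 without ligand, and Lrrc2, next to Tdgf1 on the same chromosome, by -2.61, -2.73 and -3.05. Beside Utf1 on chromosome 7, Kndc1 was lower in untreated EBs (-1.17) and Spef1l was not past the threshold (-0.16). The neighbours of Fbxo15, Cyb5a (-0.47) and Timm21 (0.52), and Tcl1b4 beside Tcl1 (-0.17) were short of it, and Lin28a lies between Dhdds (0.87) and Crybg2 (-0.80). The neighbours were taken by position, whatever their values.

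**Figure D5:**
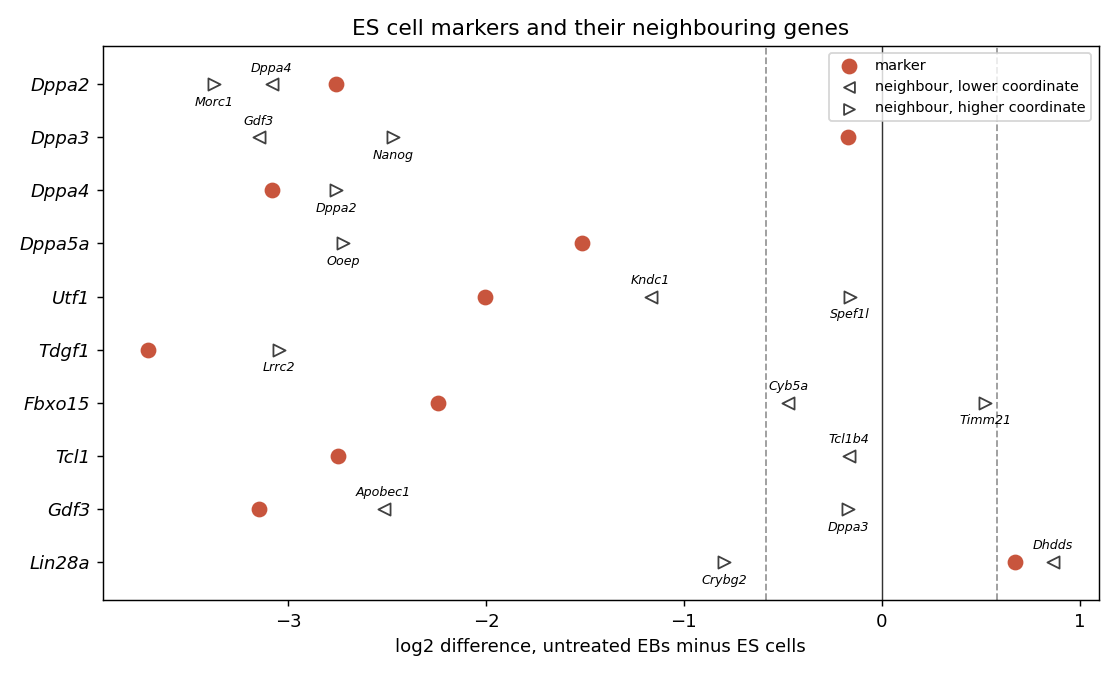
Log2 difference of untreated EBs minus ES cells (horizontal axis) for each member (filled points) and for its measured neighbours in RefSeq order (open triangles), 1 array per condition, dashed lines at 1.5-fold. Dppa3 lies near 0 between its neighbours Gdf3 (-3.15) and Nanog (-2.47), and Morc1 (-3.37) lies with Dppa4 and Dppa2. The signal of Dppa3 was below the array median in ES cells too, and whether this hid a loss was not tested.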

How the data were processed

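Total RNA of 4 mouse cultures was hybridised to Affymetrix whole-transcript arrays, 1 array per condition. The deposited table holds log2 signals, 1 for each probe set and array, and background correction, normalization and summarization had been done by the authors. The article names RMA, and the submitters' processing notes name GCRMA and Affymetrix Expression Console. The scanner files were not used here, and the genome build of the probe sets is not given in the sources used here. Of 35556 probe sets, 21789 had 1 gene symbol in the platform annotation, 1621 several and 12146 none. Those with 1 symbol were used, and of several probe sets for a gene the one highest on average was taken. Array medians were 6.66 to 6.69, and all 4 arrays were used.

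Differences were taken on the log2 scale with Python 3.11.15 (numpy 2.4.6, pandas 2.3.3, statsmodels 0.14.6) at a threshold of 1.5-fold, and the yardstick in 20 bins of signal. The scripts were tested on simulated data. The number of arrays limits the precision, since nothing separates a condition from its culture or array. The alternatives were a 2-fold threshold, quantile and loess normalization, a floor at the 25th percentile, leaving out dim genes, the mean over probe sets, 10 bins, and Pearson correlation for likeness.

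The named genes are every member, up to 4 genes of each list with the largest differences between untreated EBs and ES cells, partners and paralogs of a member, and the nearest genes by pattern, gene models without a name left out. The adjacent genes were added by position. Jam2, the let-7 genes, the GC-box variant, and Eras, Zscan10, Foxh1 and Lefty1 were added after the values were seen. The members and the 13 gene lists (131 of 152 listed genes measured) were chosen with earlier results of these data known. Sequences are from RefSeq tables of GRCm38.p6.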

Additional observations from a re-analysis of the deposited data

How the results depend on the processing

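Single-gene differences of the members were recomputed under quantile and loess normalization and with a floor on low signal. The floor could move none of them, since every member signal lay above it (5.19 to 5.22 by array). Of 180 differences, 178 kept their direction and their side of the threshold, a count that includes the unmovable floor values. The other 2 fell short of the threshold, both Lin28a in bexarotene-treated against untreated EBs, 1 after quantile and 1 after loess normalization. The mean over probe sets bears only on the 3 members with 2 probe sets, where 17 of 18 differences stayed on their side and 1 passed the threshold. A 2-fold threshold and leaving out dim genes cannot turn a direction, and 10 differences fell short of the 2-fold threshold. At a 2-fold threshold, 0 members were higher in untreated EBs than in ES cells, 1 was higher and 0 lower with RA than without ligand, and 0 were higher and 0 lower with bexarotene than without ligand. After quantile normalization 0 members were lower with bexarotene than in untreated EBs, and after loess normalization 0 as well. With the mean over the probe sets, the members' median for RA-treated against untreated EBs was 0.60, past the threshold, and Dppa4 was past it at 0.64. At a 2-fold threshold, 7 members were lower with bexarotene, 7 with RA and 8 without ligand, each against ES cells. The 5 genes most like the members by Pearson correlation shared 0 with those by distance.

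No array was left out, and no paired analysis was possible because each condition has 1 array and the result comes from no test. The number of arrays limits the precision, and for Dppa3 so does its low signal.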

Other observations

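A few genes enriched in ES cells differed from the 8 lower members in that they were lowest with bexarotene. Eras, a Ras protein that supports the growth of ES cells, was lower in untreated EBs relative to ES cells (-1.13) and lower again with bexarotene (-1.43) and RA (-0.91) against untreated EBs. Zscan10, a zinc finger protein of ES cells, differed by -0.93 in untreated EBs against ES cells, and by -0.75 with bexarotene and -0.49 with RA against untreated EBs. Foxh1, the DNA-binding partner of the Smads in Nodal signalling, differed by -0.44 in untreated EBs and by -1.17 with bexarotene and -0.85 with RA. Lefty1, a feedback inhibitor of Nodal, behaved like the members, with -1.88 in untreated EBs and 0.79 with bexarotene and 0.97 with RA against untreated EBs. These genes were chosen after their values were seen, and no test was possible with 1 array per condition.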
